A study of Mus musculus with 8 samples.

Results

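The genes described here take up, bind and activate fatty acids in adipose tissue. They are the lipoprotein lipase system (Lpl, Gpihbp1, Lmf1, Angptl4), the membrane proteins Cd36, Slc27a1 and Slc27a4, the cytosolic binding proteins Fabp4 and Fabp5, and the acyl-CoA synthetase Acsl1. The 10 genes were chosen by name, each matched exactly to the symbol in the deposited table of 31854 rows. Each symbol stood on 1 row, and all 10 rows passed the filter on low counts that left 15667 tested rows.

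RNA was sequenced from whole epididymal white adipose tissue, and all mice were on a high-fat diet. The 4 WT libraries (replicates 1, 2, 3 and 5) came from wild-type mice, and the 4 S273A libraries (replicates 2, 3, 4 and 6) from mice with a knock-in allele of PPAR-gamma in which a serine is replaced by alanine. The labels give no age, do not say whether the allele was on both chromosomes, and do not say that libraries came from separate animals, so p-values measure only the spread between these libraries. Total counts per library ran from 14880239 to 18194889, and the correlation of log2 CPM between any pair of libraries lay between 0.983 and 0.994.

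Fat cells store fatty acids that arrive in the blood as triglyceride within chylomicrons and very-low-density lipoproteins. Lipoprotein lipase is made in adipocytes, matured in the endoplasmic reticulum with the help of LMF1, carried across capillary cells and held on their surface by GPIHBP1, and there it splits the triglyceride; ANGPTL4 inactivates it. The released fatty acids enter with the help of CD36 and the fatty acid transport proteins, are carried in the cytosol by FABP4 or FABP5, and are trapped as acyl-CoA by synthetases such as ACSL1. Several of these genes, Lpl, Cd36, Fabp4, Angptl4, Slc27a1 and Acsl1 among them, are known targets of PPAR-gamma, and macrophages and capillary cells also express some of them (Cd36, Fabp4, Fabp5 and Lpl).

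The tissue label was checked against marker genes. All 9 adipocyte markers were detected in every library, with Adipoq, which encodes the fat cell hormone adiponectin, at 522 to 807 CPM (read counts scaled to a common library total with the TMM method). The brown fat gene Ucp1 lay between 0 and 1.07 CPM. Of the 6 markers listed for epididymis and testis, 3 had a row; Lcn8 was at 0 in all 8 libraries, and the list summed to at most 0.449 CPM in any library. Skeletal muscle markers were present: 3 of the 4 listed had a row, and Acta1 was at 90.2 to 175 CPM. Ttn was at 17.4 to 72.8 CPM, while Myh4 was at 0 in 3 of the 8 libraries and at most at 14.6 CPM. Their sum ran from 112 to 188 CPM in WT and from 113 to 228 CPM in S273A. Both of the 2 tested muscle markers had positive estimates for S273A against WT. Summed adipocyte markers ran from 5753 to 8974 CPM in WT and from 6744 to 8802 CPM in S273A, and 8 of the 9 had positive estimates for S273A against WT. Summed macrophage markers ran from 3837 to 4541 CPM in WT and from 3598 to 4063 CPM in S273A, and 8 of those 9 markers had negative estimates. Summed endothelial markers ran from 597 to 851 CPM in WT and from 681 to 913 CPM in S273A, with 8 of 8 positive estimates. Positive estimates were also found for 7 of 7 mesothelial markers and 5 of 5 tested red blood cell markers, and negative ones for 6 of 7 progenitor markers. Over all tested rows, 50.7% of estimates were positive. The median log2 fold change (S273A minus WT) was 0.90 for red blood cell and 0.29 for mesothelial markers. It was 0.055 for adipocyte, 0.098 for endothelial, -0.12 for macrophage and -0.072 for progenitor markers, beside 0.0015 over all tested rows. The highest red blood cell estimate, 1.38, was the highest of all tested rows. No marker of these lists passed the test for genotype. WT replicate 2 held the lowest adipocyte and endothelial sums and the highest macrophage sum. In WT replicates 1, 3 and 5 the adipocyte sums were 8031, 8974 and 8125 CPM and the endothelial sums 841, 851 and 707 CPM. Their macrophage sums were 3837, 3847 and 4114 CPM. Marker estimates without WT replicate 2 were not examined. In whole tissue, fewer cells of a type and less RNA per cell cannot be told apart.

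The genes differed widely in level. Divided by the feature length given in the deposited table, Fabp4 was the highest, at 1444 ± 228 CPM per kilobase in WT and 1495 ± 137 in S273A (mean ± SD of 4 libraries). On that scale it ranked 5 among the 15667 tested rows. Cd36 followed at 761 ± 24.2 and 750 ± 43.9, and Lpl at 605 ± 89.9 and 586 ± 51.2. Angptl4 was at 253 ± 32.9 and 269 ± 28.9, Acsl1 at 197 ± 59.8 and 192 ± 22.3, and Slc27a1 at 153 ± 12.3 and 174 ± 15.7 CPM per kilobase. These 6 genes lay within the top 161 rows.

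Fabp5 was at 79.4 ± 1.81 CPM per kilobase in WT and 85.2 ± 23.7 in S273A, Gpihbp1 at 46.7 ± 9.92 and 48.9 ± 9.42, Slc27a4 at 14.6 ± 1.16 and 14.3 ± 0.38, and Lmf1 at 2.64 ± 0.14 and 2.58 ± 0.11. Over the 8 libraries the ranges of neighbours in this order did not overlap, except for Angptl4 with Acsl1 and Acsl1 with Slc27a1. Angptl4 was nevertheless above Acsl1 in 8 of 8 libraries, and Acsl1 above Slc27a1 in 6 of 8. The order per length rests on the lengths used. With the longest GENCODE coding transcript as the length, a choice made after seeing the data, Lmf1 (11523 bases in the deposited table, 2003 in GENCODE) went from 2.61 to 15.0 CPM per kilobase over all libraries. Angptl4 went from 261 to 150 and Gpihbp1 from 47.8 to 23.1 on the same scale, Lpl moved from 596 to 887, ahead of Cd36, and 3 of the 10 genes kept their place. Only the divisor changed: the counts stayed those of the deposited feature, so these values are not levels per counted length.

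**Figure D1:**
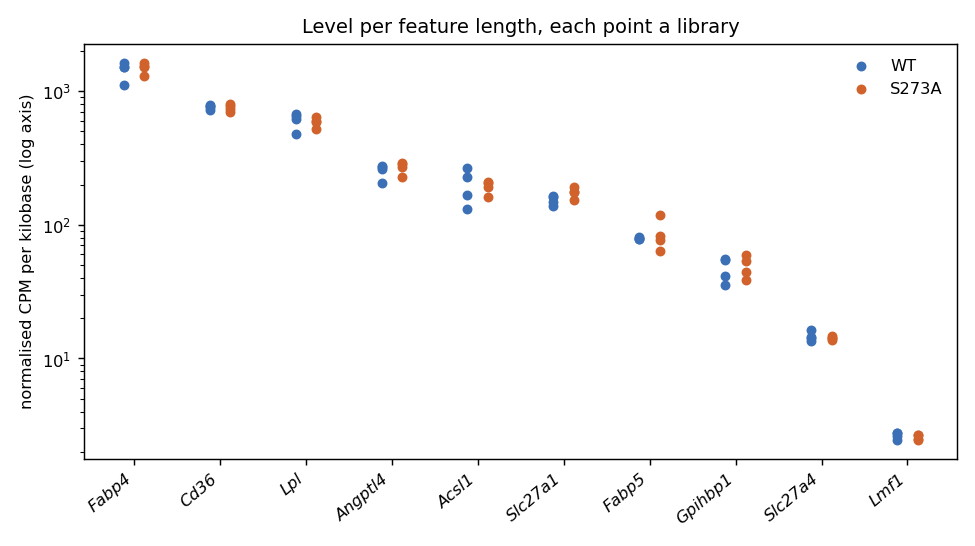
Normalised CPM per kilobase of deposited feature length (log axis) for the 10 genes, ordered by their mean, with each point a library and WT and S273A in separate colours. Fabp4 sits at the top with a mean of 1470 and Lmf1 at the bottom with 2.61, and the colours overlap for every gene.

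None of the 10 genes differed between the genotypes by the test across all rows. edgeR's quasi-likelihood test called 0 of 10 at an adjusted p under 0.05, beside 0% of all tested rows; at an unadjusted p under 0.05 it gave 0 of 10, beside 1.46% of all rows. DESeq2 and limma-voom also called 0 of 10. The S273A estimate was above WT for 5 genes and below it for 5, beside 50.7% of all rows with a positive estimate, and the median of the log2 fold changes (S273A minus WT) was 0.015 beside 0.0015 over all tested rows. The genotypes overlapped in CPM for all 10 genes, while 1.19% of all rows did not overlap. The 10 estimates lay between -0.046 and 0.19 on the log2 scale.

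**Figure D2:**
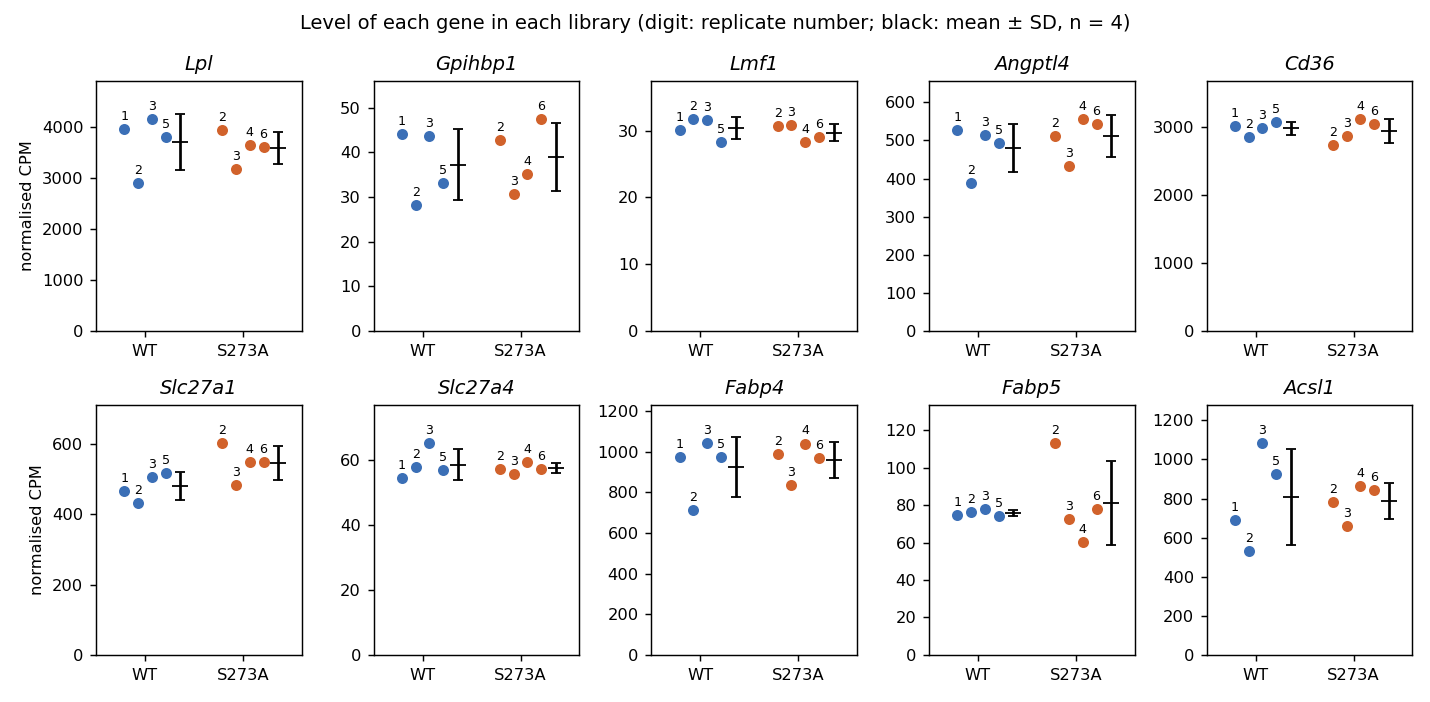
Normalised CPM (y axis, from 0) of each gene in the 4 WT and 4 S273A libraries, with the replicate number above each point and the mean ± SD in black. WT replicate 2 is the lowest library for Lpl, Gpihbp1, Angptl4, Slc27a1, Fabp4 and Acsl1, and S273A replicate 2 is the highest for Fabp5, at 113 CPM.

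Lpl, the enzyme of the system, lies on the plus strand of chromosome 8 from 68880491 to 68907448 (GRCm38, the assembly that mm10 names). It was at 3964, 2911, 4155 and 3805 CPM in WT replicates 1, 2, 3 and 5, and at 3939, 3177, 3646 and 3605 CPM in S273A replicates 2, 3, 4 and 6. WT replicate 2 and S273A replicate 3 were the lowest of their groups, and WT held both the highest and the lowest library. The estimated difference was -0.046 on the log2 scale (SE 0.12), and its 95% confidence interval ran from 0.803-fold to 1.17-fold of the WT level.

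Gpihbp1, the capillary anchor of the lipase, lies on the plus strand of chromosome 15 from 75596628 to 75599481. It was at 44.2, 28.1, 43.5 and 33.1 CPM in WT and at 42.7, 30.6, 35.1 and 47.4 CPM in S273A, in the same order of replicates. High and low libraries occurred in both genotypes (log2 fold change 0.066, SE 0.17). Lmf1, the maturation factor, on the plus strand of chromosome 17 from 25579085 to 25662826, was among the steadiest of the 10. It was at 30.1, 31.7, 31.6 and 28.3 CPM in WT and 30.6, 30.8, 28.3 and 29.0 CPM in S273A, a log2 difference of -0.035 (SE 0.062).

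Angptl4, the inhibitor of the lipase, is on chromosome 17, minus strand, at 33773750 to 33781830. Its levels were 527, 390, 515 and 493 CPM in WT and 512, 434, 556 and 544 CPM in S273A. The lowest library of each genotype was again WT replicate 2 and S273A replicate 3 (log2 fold change 0.088, SE 0.11). Relative to Lpl in the same library and per length, Angptl4 was at a log2 ratio of -1.26 ± 0.05 in WT and -1.13 ± 0.11 in S273A (mean ± SD, n = 4). The difference of 0.13 did not pass an exact two-sided permutation test (p = 0.114; 0.229 adjusted over the 4 ratios tested), for which 4 against 4 libraries allow 0.0286 at the least. Without S273A replicate 2 the difference was 0.17 and the exact permutation p 0.0286, the smallest that 4 against 3 allow, or 0.114 adjusted; without the other libraries in turn the unadjusted p was 0.114 or more. The ratio of Gpihbp1 to Lpl was at -3.71 ± 0.15 and -3.60 ± 0.21 on the same scale, a difference of 0.11 (exact permutation p = 0.514, adjusted 0.686). The level of these ratios depends on the lengths used, while the difference between the genotypes does not: with the GENCODE lengths Angptl4 to Lpl was at -2.63 in WT and -2.50 in S273A, and Gpihbp1 to Lpl at -5.33 and -5.23.

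Cd36, which encodes the fatty acid translocase, is on chromosome 5, minus strand, at 17781690 to 17888801. It was at 3024, 2858, 2984 and 3082 CPM in WT and 2741, 2871, 3119 and 3054 CPM in S273A. All 8 libraries lay within 0.19 on the log2 scale, a narrower range than that of Lpl (0.51) or Fabp4 (0.55). The log2 difference was -0.020 (SE 0.075), with an interval from 0.878-fold to 1.11-fold.

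Slc27a1 encodes FATP1, the fatty acid transport protein of fat and muscle, and Slc27a4 encodes FATP4, a more widely expressed relative. Slc27a1 lies on the plus strand of chromosome 8 from 71568882 to 71587302 and Slc27a4 on the plus strand of chromosome 2 from 29802634 to 29817522. Slc27a1 had the smallest p of the 10 genes. It was at 468, 432, 506 and 517 CPM in WT and at 604, 483, 550 and 550 CPM in S273A. Of the S273A libraries, 3 lay above every WT library, and S273A replicate 3 lay below the highest WT libraries. The mean was 1.14-fold that of WT, a log2 difference of 0.19 (SE 0.084) with a 95% confidence interval from -0.0024 to 0.37. By edgeR the unadjusted p was 0.0524, and the adjusted p of 1.00 did not pass.

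The unadjusted p for Slc27a1 crossed 0.05 with some settings, while the adjusted p stayed at 0.999 or more in each of the 16 alternatives. It was 0.0419 in DESeq2 and 0.0503 in limma-voom. By edgeR it was 0.0382 with upper-quartile scaling, 0.0423 without the filter and 0.0440 without WT replicate 5. Without S273A replicate 3, the lowest S273A library for this gene, it was 0.0163. It stayed above 0.05 by edgeR with RLE scaling (0.0544) and with repeated symbols summed (0.0583). Leaving out WT replicates 1, 2 and 3 in turn gave 0.110, 0.122 and 0.0537. Leaving out S273A replicates 4 and 6 in turn gave 0.0928 and 0.0937. Without S273A replicate 2 it was 0.15. With the replicate number as a block, where only replicates 2 and 3 of each genotype bear on the difference, it was 0.374. With the mean level of the adipocyte markers as a covariate, a fit chosen after seeing the data, it was 0.0227 (log2 fold change 0.17, SE 0.061), with an adjusted p of 0.999 in edgeR. Of all rows, 356 had an unadjusted edgeR p under 0.05 without S273A replicate 3 and 295 with that covariate, against 229 in the main fit. Slc27a4 was at 54.4, 57.6, 65.1 and 56.7 CPM in WT and 57.3, 55.5, 59.2 and 57.2 CPM in S273A, and the libraries of both genotypes were interleaved (log2 fold change -0.028, SE 0.063). The log2 ratio of Slc27a1 to Slc27a4 per length was 3.39 ± 0.13 in WT and 3.60 ± 0.11 in S273A (mean ± SD, n = 4). The difference of 0.21 did not pass an exact two-sided permutation test (p = 0.0571, adjusted over the 4 ratios 0.229).

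Promoter sequence was available for 5 of the 10 genes (Acsl1, Cd36, Lmf1, Slc27a1 and Slc27a4) in 8 windows from RefSeq on GRCm38.p6, of which the 250 bases before the start were read. Windows of the transporter genes are shown because Cd36, Slc27a1 and Slc27a4 stand for the same step of uptake at levels from 14.3 to 761 CPM per kilobase. Capitals mark the nuclear receptor hexamer AGGTCA, the GC box GGGCGG and CCAAT, each searched on both strands. The Cd36 window is chr5:17835897-17836146 on the minus strand. It lies inside the annotated span of the gene, and its start is 179 bases from the nearest annotated principal start. The Slc27a1 window, of 3 the nearest to the annotated principal start, is chr8:71568621-71568870 on the plus strand, and the Slc27a4 window is chr2:29802384-29802633 on the plus strand.
Cd36: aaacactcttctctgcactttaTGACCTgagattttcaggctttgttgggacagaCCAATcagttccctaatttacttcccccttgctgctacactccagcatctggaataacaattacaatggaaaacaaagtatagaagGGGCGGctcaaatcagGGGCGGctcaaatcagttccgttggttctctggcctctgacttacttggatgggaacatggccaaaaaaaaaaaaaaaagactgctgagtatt
Slc27a1: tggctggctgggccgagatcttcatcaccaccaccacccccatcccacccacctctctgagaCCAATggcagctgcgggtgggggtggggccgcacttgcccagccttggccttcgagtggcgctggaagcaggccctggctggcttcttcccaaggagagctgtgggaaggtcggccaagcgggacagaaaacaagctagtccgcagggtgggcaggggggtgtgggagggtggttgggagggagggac
Slc27a4: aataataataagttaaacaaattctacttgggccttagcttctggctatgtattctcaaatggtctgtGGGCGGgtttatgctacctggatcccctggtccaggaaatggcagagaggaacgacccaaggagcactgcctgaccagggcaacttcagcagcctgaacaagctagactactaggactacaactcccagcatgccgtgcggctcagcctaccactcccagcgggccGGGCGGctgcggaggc

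The direct repeat bound by PPAR-gamma with its partner RXR, AGGTCANAGGTCA, was in none of the 8 windows and in 0.0335% of the 32851 windows of all genes. That search is for exact letters in a short window, so it says nothing about binding elsewhere. The hexamer AGGTCA, which makes up the repeat, was found in the Cd36 window alone, on the opposite strand at -228 from the start; 14.0% of all windows hold it. GC boxes were in 6 of the 8 windows, beside 32.7% of all windows, and stood at -109 and -93 of Cd36 and at -182 and -16 of Slc27a4. The Slc27a1 window shown held none, while its other 2 windows held them. CCAAT was in 4 of the 8 windows, beside 33.8% of all windows, and stood at -195 of Cd36 and -188 of Slc27a1.

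Fabp4 and Fabp5 are neighbours in a cluster of binding protein genes on chromosome 3. Fabp5 lies on the plus strand from 10012548 to 10016607, then come Pmp2 and Fabp9, and Fabp4 lies on the minus strand from 10204088 to 10208576, with Fabp12 35.6 kb further on. The cluster was very uneven: Pmp2 had 0 to 6 counts and Fabp12 2 to 9 counts per library, both too few to be tested, against 12521 to 18120 for Fabp4. FABP4 is the main fatty acid carrier of adipocytes, and FABP5 is its relative in skin, macrophages and, at lower level, fat.

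Fabp4 was at 974, 711, 1043 and 974 CPM in WT and 990, 834, 1040 and 970 CPM in S273A. WT replicate 2 was well below the other WT libraries, and the other 3 WT libraries overlapped S273A (log2 fold change 0.050, SE 0.12). Fabp5 was at 74.6, 76.4, 77.8 and 74.0 CPM in WT, and at 113, 72.8, 60.5 and 78.1 CPM in S273A. The WT libraries were close together, with an SD of 1.72 CPM, whereas S273A replicate 2 was the highest of all libraries, S273A replicate 4 the lowest, and the SD was 22.6 CPM. The log2 fold change of Fabp5 was 0.10 (SE 0.16), and without S273A replicate 2 it was -0.10.

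Fabp5 per length was at 5.15%, 7.23%, 5.02% and 5.11% of Fabp4 in WT and at 7.70%, 5.87%, 3.92% and 5.42% in S273A. The highest of these belonged to S273A replicate 2, where Fabp5 was high, and the next to WT replicate 2, where Fabp4 was low. The log2 ratio differed by 0.0012 between the genotypes (-4.17 ± 0.25 in WT and -4.17 ± 0.40 in S273A; exact permutation p = 1). That difference had the opposite sign in 5 of the 8 comparisons without 1 library, between -0.15 without S273A replicate 2 and 0.17 without S273A replicate 4.

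Acsl1 encodes the synthetase that commits fatty acids to triglyceride or oxidation as acyl-CoA. It lies on the plus strand of chromosome 8 from 46471037 to 46536051. Of its exon bases over all GENCODE transcripts, 9.91% overlap Gm45244 on the opposite strand. The libraries hold no strand information, so reads of the genes there cannot be told apart. Whether the counted feature of 4093 bases includes the overlap was not checked, and the number of such reads was not measured. Acsl1 had the widest range over the 8 libraries of the 10 genes, 1.02 on the log2 scale, at 689, 533, 1085 and 925 CPM in WT and 784, 660, 862 and 843 CPM in S273A. The WT libraries spanned the whole range (log2 fold change -0.037, SE 0.20), and the interval ran from 0.718-fold to 1.32-fold, the widest of the 10.

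**Figure D3:**
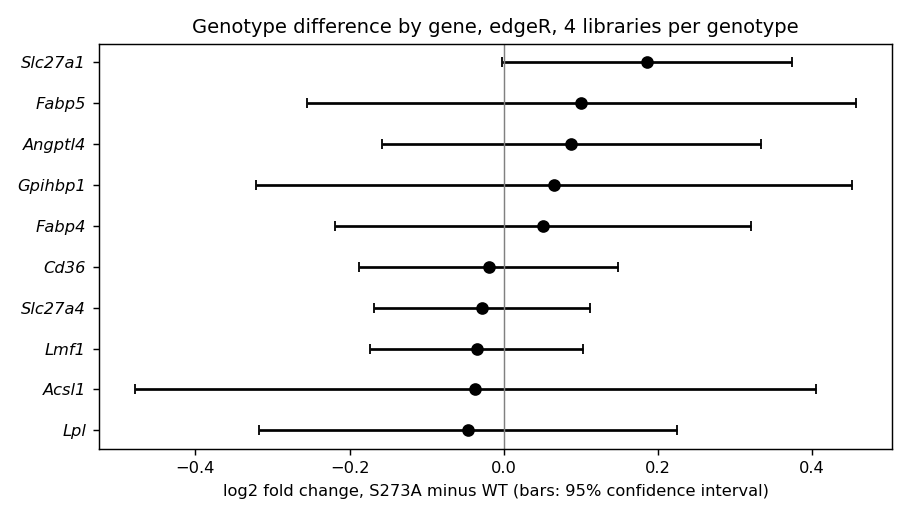
Log2 fold change (x axis, S273A minus WT) of the 10 genes from edgeR with 95% confidence intervals, from 4 libraries per genotype. Every interval includes 0; that of Slc27a1, from -0.0024 to 0.37, reaches it only at its lower end, and that of Acsl1 is the widest.

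The genes differed in their spread between libraries. The SD of log2 CPM pooled over both genotypes was 0.34 for Acsl1, 0.30 for Gpihbp1, 0.27 for Fabp5, 0.20 for Fabp4, 0.19 for Lpl and 0.18 for Angptl4. It was 0.13 for Slc27a1, 0.084 for Slc27a4, 0.069 for Lmf1 and 0.068 for Cd36. The pooled value hides a difference between the genotypes for some genes, which was not tested: the SD of Acsl1 was 0.45 in WT and 0.17 in S273A, and that of Fabp5 was 0.033 in WT and 0.38 in S273A, the highest SD of the 10 genes in S273A. For Fabp4 it was 0.25 and 0.14, for Lpl 0.23 and 0.13, and for Gpihbp1 0.32 and 0.28. Over the 8880 tested rows whose mean log2 CPM was 4 or more, the median of the pooled SD was 0.10, and the 90th percentile 0.23. WT replicate 2 was the lowest library for 6 of the 10 genes (Lpl, Gpihbp1, Angptl4, Fabp4, Slc27a1 and Acsl1). That library also had the lowest mean level of the adipocyte and of the endothelial markers and the highest of the macrophage markers; their part in these low values was not tested.

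**Figure D4:**
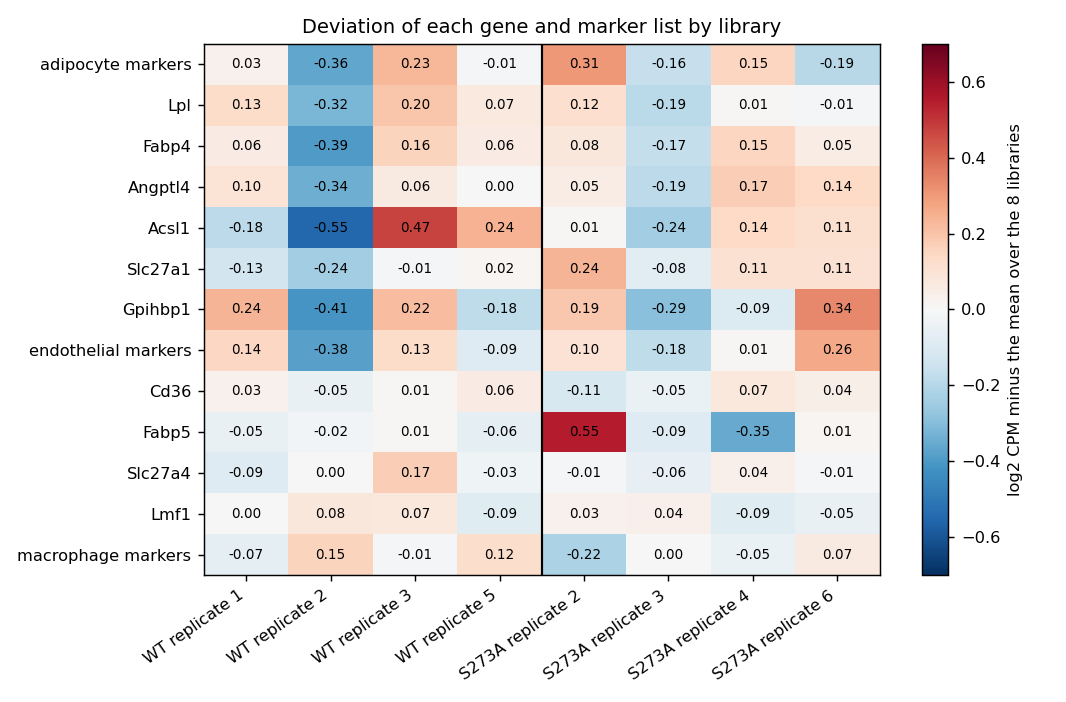
Log2 CPM minus the mean over the 8 libraries for the 10 genes and the mean of each marker list (rows) by library (columns), with red above and blue below that mean. The column of WT replicate 2 is blue for 6 genes and for the adipocyte and endothelial markers, while Cd36, Slc27a4 and Lmf1 stay pale across the libraries and Fabp5 departs in S273A replicates 2 and 4.

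Relations across the 8 libraries were computed for the 45 pairs of genes and for each gene with the mean log2 CPM of the adipocyte, macrophage and endothelial markers, 75 in all. Gpihbp1 with the 8 endothelial markers was the 1 relation with an adjusted p under 0.05. Pearson's r was 0.97 and Spearman's rho was 1.00: ordered by either measure, the 8 libraries fell in the same order. The exact permutation p for r was 2.48e-05, the smallest that the pairings can give, and 0.00186 after adjustment over the 75 relations; for rho it was 4.96e-05, and 0.00372 adjusted. Without WT replicate 2 and S273A replicate 3, the libraries farthest from the median, r was 0.97, and with each genotype's mean removed it was 0.98. Each library gives both values, so composition of the tissue sample and depth are shared by them.

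No other relation had an adjusted p under 0.05. Of the 45 pairs of genes, Fabp4 with Acsl1 had the smallest p, with an r of 0.87 and a rho of 0.83 (exact permutation p = 0.00243 and 0.0154, adjusted 0.0663 and 0.327), and r was 0.59 without WT replicate 2 and S273A replicate 3. Angptl4 had an r of 0.89 with the endothelial markers (rho 0.76; exact permutation p = 0.00337 and 0.0368, adjusted 0.0663 and 0.345), and 0.45 without those libraries. Fabp4 had an r of 0.81 with the adipocyte markers (rho 0.88; exact permutation p = 0.00531 for r and 0.00724 for rho, adjusted 0.0663 and 0.272). It was 0.76 without WT replicate 2 and S273A replicate 2, the libraries farthest from the median of the adipocyte markers. For Lpl with those markers r was 0.84 and rho 0.81 (exact permutation p = 0.00675 and 0.0218, adjusted 0.0723 and 0.327), and r was 0.72 without WT replicate 2 and S273A replicate 2. The same genes had similar r with the endothelial markers, 0.83 for Fabp4 (rho 0.38; exact permutation p = 0.0149 and 0.36, adjusted 0.102 and 0.692) and 0.80 for Lpl (rho 0.60; exact permutation p = 0.0177 and 0.132, adjusted 0.102 and 0.588). Without WT replicate 2 and S273A replicate 3 these were -0.18 and 0.00019, so both rest on those libraries. That pair differs from the pair left out for the adipocyte markers, so the drops in r are not compared.

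Lpl with Fabp4 gave an r of 0.92 and a rho of 0.79 (exact permutation p = 0.00503 and 0.0279, adjusted 0.0663 and 0.345), but r was 0.26 without WT replicate 2 and S273A replicate 3, so that relation rests on these libraries. The same holds for Angptl4 with Fabp4, where r was 0.95 with all libraries and 0.29 without them (rho 0.55; exact permutation p = 0.00526 and 0.171, adjusted 0.0663 and 0.588). Cd36 had an r of -0.026 with the adipocyte markers (rho -0.05; exact permutation p = 0.951 for r, adjusted 0.977). Fabp4 with Fabp5 gave an r of 0.02 and a rho of 0.05 (exact permutation p = 0.923 for r, adjusted 0.975). Cd36 with Fabp5 gave the lowest r of the 75, -0.77 (rho -0.55; exact permutation p = 0.0173 and 0.171, adjusted 0.102 and 0.588), and -0.40 without WT replicate 2 and S273A replicate 2. With the macrophage markers r was negative for 9 of the 10 genes and ran from -0.62 for Slc27a1 to 0.39 for Cd36, with a median of -0.50. The smallest exact permutation p of these was 0.101, for Slc27a1 (adjusted 0.291). Without WT replicate 2 and S273A replicate 2, r was 0.36 for Slc27a1, 0.39 for Fabp5, 0.32 for Acsl1 and 0.16 for Cd36. For Lpl, Gpihbp1, Lmf1, Angptl4, Fabp4 and Slc27a4 it then lay between -0.41 and -0.078, so the sign rests on those libraries for Slc27a1, Fabp5 and Acsl1.

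**Figure D5:**
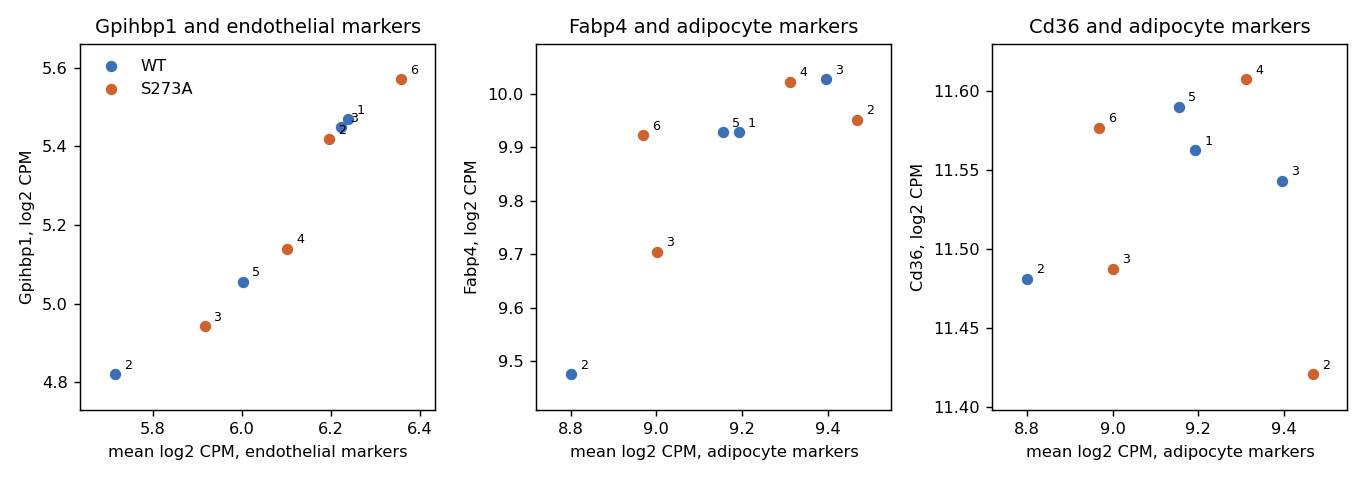
Log2 CPM of Gpihbp1 against the mean log2 CPM of the endothelial markers, and of Fabp4 and Cd36 against that of the adipocyte markers, with each point a library labelled by its replicate number. Gpihbp1 follows its markers in order through both genotypes (r = 0.97), Fabp4 follows with WT replicate 2 at the low end (r = 0.81), and Cd36 is scattered (r = -0.026).

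The genes most like each of the 10 in their pattern over the 8 libraries were taken by the highest Pearson's r among 8503 other genes, as a description of these libraries only. For Gpihbp1 they were C1qtnf9 (r = 0.993) and Pald1 (0.992), the latter a gene of endothelial cells. For Fabp4 they were Aqp7 (0.993), the glycerol channel of adipocytes, and Btd (0.993), the biotin-recycling enzyme. Acsl1 was most like Tmem120a (0.994), a nuclear envelope protein gene, and Mfng (0.993), a glycosyltransferase gene. Lpl was most like Slc39a13 (0.983), a zinc transporter gene, and Napepld (0.971), a phospholipase gene.

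The nearest for Angptl4 were Kctd17 (0.972) and Pigq (0.972), and for Cd36 it was Mfap3l (0.970). Fabp5 was nearest to Tbc1d2 (0.961) and Ndst1 (0.956), and Slc27a1 to Pim3 (0.948), a kinase gene, and Rasgrf2 (0.941). Lmf1 was nearest to Psme2b (0.954) and Rab43 (0.943), and Slc27a4 to D8Ertd738e (0.968) and Epn1 (0.955). Each gene was picked for its place at the top of 8503 values, and no test was made of them.

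Other genes of fatty acid uptake were read from a list of 59, of which 57 had a row and 43 were tested. edgeR called 0 higher and 0 lower, beside 0% of all rows, and 0 of the 43 had an unadjusted p under 0.05; DESeq2 and limma-voom called none of them. Of the 43, 26 were estimated above WT and 17 below, and the median log2 difference was 0.021. Smallest in p was Lsr, a lipoprotein receptor gene, with 25.6 ± 1.15 CPM for WT and 27.0 ± 0.71 for S273A, followed by the acyl-CoA synthetase gene Acsl3, at 21.1 ± 1.32 and 22.5 ± 1.43 CPM. Next were the synthetase gene Acsl5, at 154 ± 6.18 and 148 ± 5.30 CPM, and the acyl-CoA thioesterase gene Acot9, at 50.2 ± 1.46 and 48.3 ± 1.16 CPM (mean ± SD, n = 4).

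By role, 21 of the 25 other genes around lipoprotein lipase were tested, with 13 positive estimates and a median of 0.024. Of the 12 transporters and membrane partners, 9 were tested, with 7 positive estimates and a median of 0.026. Of the 10 other binding proteins 3 were tested, with 1 positive estimate, and of the 12 synthetases and thioesterases 10 were, with 5 positive estimates. The other Fabp genes were scarce: Fabp3, the form of heart and muscle, had 7 to 12 counts per library, and Fabp1, the liver form, 0 to 1. Among the relatives of Slc27a1, the liver transporter genes Slc27a2 and Slc27a5 had at most 1 and 11 counts in a library, and neither was tested.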

How the data were processed

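RNA-seq was measured in 8 libraries, 4 WT and 4 S273A, grouped by the genotype field of the labels. Per the labels' protocols, rRNA-depleted total RNA was made into cDNA without keeping the strand. The authors deposited whole-number read counts per gene, not normalised, with feature lengths in bases, another quantity, in a further column. Per the submitters' processing notes, which give no roles, the tools were HISAT2 2.0.5, featureCounts 1.5.2, Picard 2.9.2, edgeR 3.3.0 and bcl2fastq 2.20.0 and the build mm10; the annotation is not given in the sources used here.

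Counts were tested with edgeR 4.0.16 (filterByExpr, TMM, glmQLFit with the robust option, glmQLFTest; no covariate) in R 4.3.3, with Benjamini-Hochberg adjustment over 15667 rows and a threshold of 0.05. Log2 CPM used a prior count of 2. DESeq2 1.42.0, limma-voom (limma 3.58.1), other scalings, no filter, summed symbols, a replicate term and leaving out each library were alternatives. On counts simulated for this comparison over 15536 genes, edgeR called 9, 35, 44 and 49 of 50 genes changed 1.25-, 1.5-, 2- and 4-fold, with 16 false calls. Those counts were drawn independently for each gene and held planted changes. In the measured counts edgeR called 0 rows, and its lowest adjusted p was 0.646. The simulated shares therefore need not hold for these libraries. Precision is limited by 4 libraries per genotype and totals of 14880239 to 18194889 counts. Positions are from GENCODE M21. Named genes were the 10, the 4 listed pathway genes with the smallest p, and, for each of the 10, the 2 genes of mean log2 CPM of at least 4, other than Gm, Rik, LOC or Mir names, with the highest r; 1 gene that this rule names is not reported here; further genes were named after their values were seen. The members and lists were chosen with earlier results of these data known.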

Additional observations from a re-analysis of the deposited data

Results flagged for a closer look

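Of 28 sets of 4 values examined (10 genes and 4 ratios in each genotype), 1 held a library far from the others: the log2 ratio of Fabp5 to Fabp4 was -3.79 in WT replicate 2, against -4.28, -4.32 and -4.29 in WT replicates 1, 3 and 5. The gap to the nearest library was 0.927 of the range of the group, above the critical value of Dixon's test for 4 samples. Chance alone flags about 1 in 20 such sets. In that library Fabp4 was at 711 CPM and Fabp5 at 76.4 CPM, and summed adipocyte markers were at 5753 CPM, the lowest of the 8 libraries; their part in the ratio was not tested.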

How the results depend on the processing

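No alternative called any of the 10 genes or of the 43 other uptake genes. Over all rows, DESeq2 and the fit without S273A replicate 4 each called 1 row, which was none of these genes, where edgeR with all libraries called 0. Of 160 fold changes (10 genes, 16 alternatives), 146 kept their sign and 14 reversed it, all of them uncalled; the cause was not tested. Acsl1 was 0.0038 in limma-voom. Lpl was 0.025 with the replicate block, where only replicates 2 and 3 of each genotype bear on the difference. Without WT replicate 2, Gpihbp1 was -0.049, Angptl4 -0.0012 and Fabp4 -0.057. Leaving out each library gave ranges of -0.19 to 0.14 for Acsl1, -0.15 to 0.017 for Lpl, -0.049 to 0.17 for Gpihbp1, -0.0012 to 0.17 for Angptl4, -0.048 to 0.013 for Cd36, -0.057 to 0.12 for Fabp4, -0.10 to 0.22 for Fabp5, -0.062 to 0.031 for Slc27a4, -0.070 to -0.012 for Lmf1 and 0.13 to 0.25 for Slc27a1. The number of positive estimates ran from 2 (without WT replicate 2) to 8 (without WT replicate 3). The log2 ratio difference of Fabp5 to Fabp4 ran from -0.15 to 0.17 without 1 library, and the other 3 ratios kept their sign. Removing the genotype means or RLE scaling left 1 relation past the threshold. With GENCODE lengths, 3 of the 10 genes kept their place in the order of levels.

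Replicate numbers 2 and 3 occur in both genotypes, but nothing says that they pair animals: deviations from the group means correlated at -0.099 and -0.28. With the replicate block only replicates 2 and 3 bear on the genotype difference, as each other number occurs in a single genotype. The number of rows at an unadjusted p under 0.05 was then 94 against 229, and no row was called. In the simulated counts, changes of 1.25-fold were mostly not called with 4 libraries per genotype, and detection in the measured libraries was not tested.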
